A study of Mus musculus with 4 samples.

Results

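The aryl hydrocarbon receptor pathway was followed through 8 genes, Ahr, Ahrr, Arnt, Cyp1a1, Cyp1b1, Tiparp, Nqo1 and Ido1, out of 19938 genes measured. They were chosen by name, and each was read from its probe set with 1 gene symbol, taking the highest mean over the arrays where a gene had several (all 8 had 1 probe set). Since the list was drawn up with results of these arrays known, the members' values are given as a description, without tests. Dendritic cells (DCs), the cells that present antigen to T cells, were grown from mouse bone marrow in Flt3 ligand (200 ng/ml) for 8 days. The ko cells came from miR-142-/- mice and the wt cells from miR-142+/+ mice, both on the C57BL/6 background and with no other treatment named; the animals' age is not given in the sources used here. B220-negative, CD11c-positive cells were sorted into CD8-equivalent DCs (CD172-negative, CD24-positive, low CD11b) and CD4-equivalent DCs (CD172-positive, low CD24, CD11b-positive). Each of the 4 groups (ko CD8-equivalent, ko CD4-equivalent, wt CD8-equivalent and wt CD4-equivalent) is 1 array. Neither the number of mice or cultures behind it nor the part of the locus removed is stated in the sources used here. There are therefore no replicates, and 1 array per group sets the limit to precision throughout.

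The aryl hydrocarbon receptor is a transcription factor of the bHLH-PAS family that waits in the cytosol in a complex with the chaperone HSP90 and moves to the nucleus when it binds a ligand, such as dioxins, dietary indoles or tryptophan metabolites. There it pairs with ARNT and binds DNA elements with the core GCGTG, which switches on Cyp1a1, Cyp1b1, Tiparp and Ahrr. The last of these, the aryl hydrocarbon receptor repressor, competes with the receptor and closes a negative feedback loop. In DCs the receptor is best known for its links to tolerance, partly through IDO1, whose product is converted to kynurenine, a ligand of the receptor.

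The promoters of the 4 classical target genes are shown because one of them, Ahrr, differed most, while Tiparp was nearly level and Cyp1a1 and Cyp1b1 lay too low to be compared. RefSeq promoter windows (build GRCm38.p6, 250 bases before to 50 after the start, 300 in all) were matched for 6 of the 8 members, Ahrr, Arnt, Cyp1a1, Cyp1b1, Tiparp and Nqo1. The motif searched was GCGTG on both strands, and capitals mark each match (CACGC is a match on the opposite strand). The windows lie at chr13:74292282-74292581 (- strand) for Ahrr, chr3:65528197-65528496 (+ strand) for Tiparp, chr9:57697363-57697662 (+ strand) for Cyp1a1 and chr17:79715012-79715311 (- strand) for Cyp1b1.
Ahrr: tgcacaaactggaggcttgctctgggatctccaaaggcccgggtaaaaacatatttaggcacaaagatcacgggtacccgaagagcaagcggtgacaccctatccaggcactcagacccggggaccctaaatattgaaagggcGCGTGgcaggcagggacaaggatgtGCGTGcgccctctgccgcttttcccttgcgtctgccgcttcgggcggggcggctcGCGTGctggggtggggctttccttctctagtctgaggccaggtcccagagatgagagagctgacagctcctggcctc
Tiparp: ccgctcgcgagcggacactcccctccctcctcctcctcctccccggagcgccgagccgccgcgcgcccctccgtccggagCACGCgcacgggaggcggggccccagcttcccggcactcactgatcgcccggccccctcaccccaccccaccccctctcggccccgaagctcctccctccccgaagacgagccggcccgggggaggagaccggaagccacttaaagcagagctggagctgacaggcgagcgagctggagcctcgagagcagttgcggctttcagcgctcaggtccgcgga
Cyp1a1: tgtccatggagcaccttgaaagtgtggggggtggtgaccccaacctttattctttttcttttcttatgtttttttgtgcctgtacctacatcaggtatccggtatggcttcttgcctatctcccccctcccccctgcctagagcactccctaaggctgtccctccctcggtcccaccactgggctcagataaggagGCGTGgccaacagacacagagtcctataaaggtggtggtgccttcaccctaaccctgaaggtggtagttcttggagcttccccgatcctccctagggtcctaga
Cyp1b1: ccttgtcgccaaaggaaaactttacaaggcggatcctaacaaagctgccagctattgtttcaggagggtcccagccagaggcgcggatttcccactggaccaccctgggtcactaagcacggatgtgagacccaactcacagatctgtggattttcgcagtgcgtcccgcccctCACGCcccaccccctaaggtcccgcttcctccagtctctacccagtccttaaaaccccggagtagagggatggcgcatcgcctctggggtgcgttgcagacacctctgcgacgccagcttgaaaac
The Ahrr window held 3 matches, beginning 107, 82 and 27 bases before the start. Tiparp, Cyp1a1, Cyp1b1 and Arnt held 1 each, and Nqo1 held 0. Of 32851 RefSeq promoter windows of this length, 32.4% held at least 1 match and 3.91% held 3 or more. The longer form TNGCGTG, which contains the core, occurred once in the Ahrr window, in 0 of the other 5 windows and in 5.07% of all windows. A match describes letters in this window and not a bound site. Sequence outside the windows was not searched for any gene, so the counts do not rank the genes by their receptor elements.

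Mir142, the gene of the deleted microRNA, read 4.79 in ko CD8-equivalent and 4.92 in ko CD4-equivalent DCs, against 9.87 in wt CD8-equivalent and 10.37 in wt CD4-equivalent DCs (log2 expression by RMA, the scale of all levels given here). Sirpa, the gene of the sort marker CD172a, read 9.67 in CD8-equivalent and 11.92 in CD4-equivalent DCs of ko, and 9.69 in CD8-equivalent and 12.11 in CD4-equivalent DCs of wt, in the order of the sort. Cd24a, the gene of the sort marker CD24, read 12.72 in CD8-equivalent and 11.98 in CD4-equivalent DCs of ko, and 12.76 in CD8-equivalent and 10.98 in CD4-equivalent DCs of wt, so it was 2.01-fold higher in ko than in wt CD4-equivalent DCs. Between 9774 and 9821 of 19938 genes per array lay at or above a floor of 5.68, set at the median over probe sets with 1 gene symbol. A difference was read only where the higher value reached this floor, since RMA compresses differences near background, and was counted when it reached 2-fold, a log2 difference of 1.

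The receptor gene Ahr lay above the floor on all arrays and read lower in ko. Ahr (probe set 10400006, chromosome 12) read 8.29 in ko CD8-equivalent and 8.56 in ko CD4-equivalent DCs, against 9.11 in wt CD8-equivalent and 9.05 in wt CD4-equivalent DCs. Both ko arrays lay below both wt arrays, and neither difference reached 2-fold: ko minus wt was -0.82 in CD8-equivalent DCs (1.76-fold lower) and -0.49 in CD4-equivalent DCs (1.40-fold lower). Of the genes compared, 1.63% had a lower difference in CD8-equivalent and 6.11% in CD4-equivalent DCs. The subsets differed less, by -0.27 (CD8- minus CD4-equivalent) in ko and 0.06 in wt.

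Arnt, the partner with which the receptor binds DNA, was nearly level. Arnt (probe set 10494238, chromosome 3) read 10.02 in ko CD8-equivalent and 10.18 in ko CD4-equivalent DCs, against 9.79 in wt CD8-equivalent and 10.14 in wt CD4-equivalent DCs. Ko minus wt was 0.23 in CD8-equivalent and 0.04 in CD4-equivalent DCs. Its whole span of 0.39 over the arrays was smaller than the median span of 0.44 over the 10239 genes with at least 1 array at the floor or above, while the span of Ahr was 0.82.

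Ahrr, the repressor, differed most of the 8 genes. Ahrr (probe set 10410604, chromosome 13) read 5.82 in ko CD8-equivalent and 6.82 in ko CD4-equivalent DCs, against 7.86 in wt CD8-equivalent and 9.21 in wt CD4-equivalent DCs. The arrays stood in the order ko CD8-equivalent, ko CD4-equivalent, wt CD8-equivalent and wt CD4-equivalent from low to high, with the lowest just above the floor, and with 1 array per group no replicate spread can be set against the steps between neighbours. Ko minus wt was -2.04 in CD8-equivalent DCs (4.10-fold lower) and -2.39 in CD4-equivalent DCs (5.25-fold lower). That put Ahrr at rank 18 from the lowest of 9972 genes compared in CD8-equivalent DCs and at rank 9 of 9978 in CD4-equivalent DCs. CD8- minus CD4-equivalent, it differed by -0.998 in ko (just under 2-fold) and by -1.35 in wt (2.56-fold lower), at rank 398 of 10118 and rank 178 of 9998. The genotype difference of CD8-equivalent DCs minus that of CD4-equivalent DCs was 0.36, a value that has no test. The differences -2.04, -0.998 and 0.36 all rest on the ko CD8-equivalent value, which lies near the floor, where sizes can be compressed. The span of Ahrr, 3.39 over the arrays, exceeded that of 99.2% of the 10239 genes.

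Tiparp, which encodes PARP7, an ADP-ribosyltransferase that is induced by the receptor and limits it, was nearly level. Tiparp (probe set 10492428, chromosome 3) read 9.38 in ko CD8-equivalent and 9.70 in ko CD4-equivalent DCs, against 9.61 in wt CD8-equivalent and 9.64 in wt CD4-equivalent DCs. Ko minus wt was -0.24 in CD8-equivalent and 0.06 in CD4-equivalent DCs, so the values of the genotypes overlapped, and the span over the arrays was 0.33.

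The other 4 genes lay below the floor on all 4 arrays, between 4.33 and 4.62. The xenobiotic-metabolising enzyme gene Cyp1a1, the most used readout of the receptor (probe set 10585749, chromosome 9), read 4.34 in ko CD8-equivalent and 4.56 in ko CD4-equivalent DCs, against 4.49 in wt CD8-equivalent and 4.37 in wt CD4-equivalent DCs. Cyp1b1, the related enzyme that many immune and stromal cells use (probe set 10453057, chromosome 17), read 4.47 and 4.38 in ko CD8- and CD4-equivalent DCs, against 4.40 and 4.46 in wt CD8- and CD4-equivalent DCs. Nqo1, a quinone reductase that answers to both the receptor and the oxidative stress factor NRF2 (probe set 10581538, chromosome 8), read 4.33 and 4.35 in ko CD8- and CD4-equivalent DCs, against 4.44 and 4.62 in wt CD8- and CD4-equivalent DCs. For these 3 genes any difference between groups lies in the range where the arrays cannot show one. Ido1, the first enzyme of tryptophan breakdown and a gene that mature DCs can switch on (probe set 10577655, chromosome 8), read 4.52 and 4.55 in ko CD8- and CD4-equivalent DCs, against 4.50 and 4.50 in wt CD8- and CD4-equivalent DCs. Values below the floor do not show that a gene was silent.

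**Figure D1:**
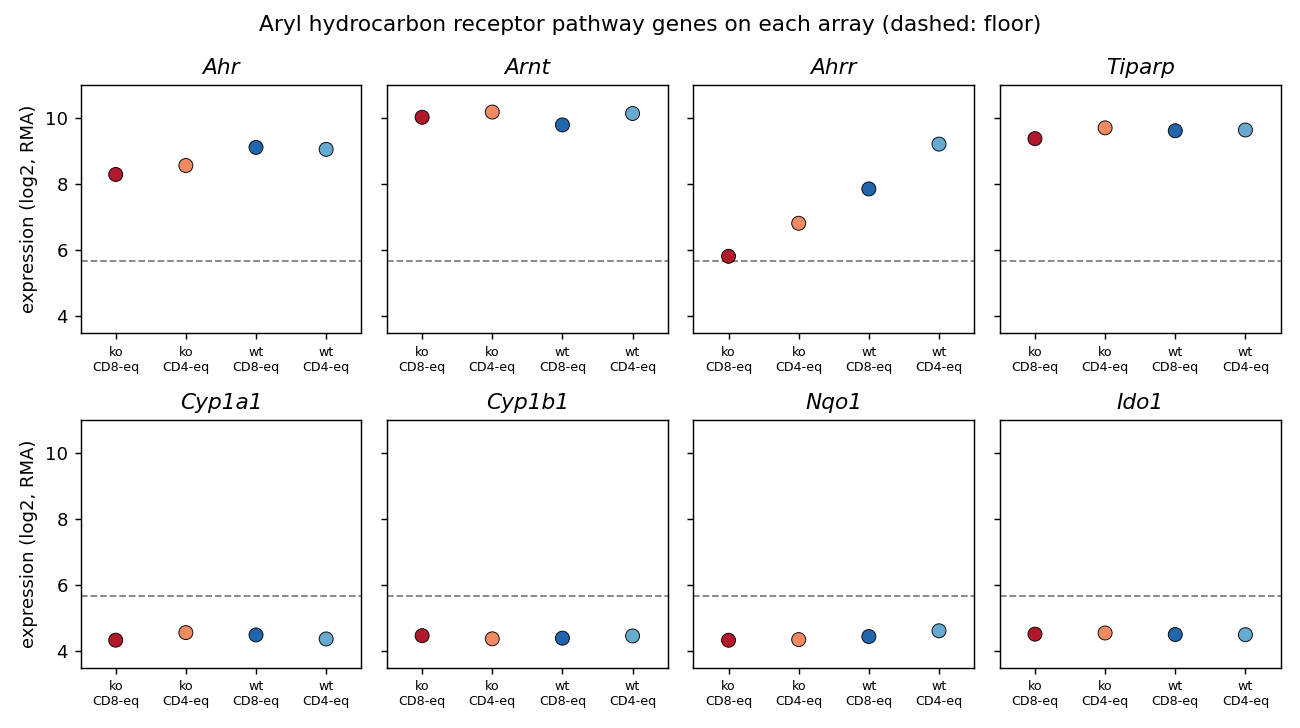
Log2 RMA expression (vertical axis) of the 8 pathway genes on each of the 4 arrays (horizontal axis), 1 point per array, with the floor of 5.68 dashed. Ahrr steps down to 5.82 in ko CD8-equivalent DCs, Ahr is lower on both ko arrays, Arnt and Tiparp are nearly level, and Cyp1a1, Cyp1b1, Nqo1 and Ido1 stay below the floor.

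Counted together, 4 of the 8 members could be compared. In ko CD8-equivalent DCs 1 of them, Ahrr, was lower by 2-fold or more and 0 were higher, where 1.00% of all genes compared were lower and 1.14% higher. In ko CD4-equivalent DCs 1, again Ahrr, was lower and 0 were higher, where 0.952% of all genes were lower and 1.39% higher. Between the subsets of ko 0 of 4 were lower and 0 higher in CD8-equivalent DCs, where 3.90% of all genes were lower and 3.39% higher. Between the subsets of wt 1, Ahrr, was lower and 0 were higher, where 3.14% of all genes were lower and 2.10% higher. The median ko minus wt difference of the 4 was -0.53 in CD8-equivalent and -0.22 in CD4-equivalent DCs (-0.13 after cyclic loess), against 0.004 and -0.08 over all genes compared. The median CD8- minus CD4-equivalent difference of the 4 was -0.30 in ko and -0.18 in wt, against 0.11 and 0.04 over all genes. With members chosen in view of these arrays, nothing is read from the counts and medians.

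**Figure D2:**
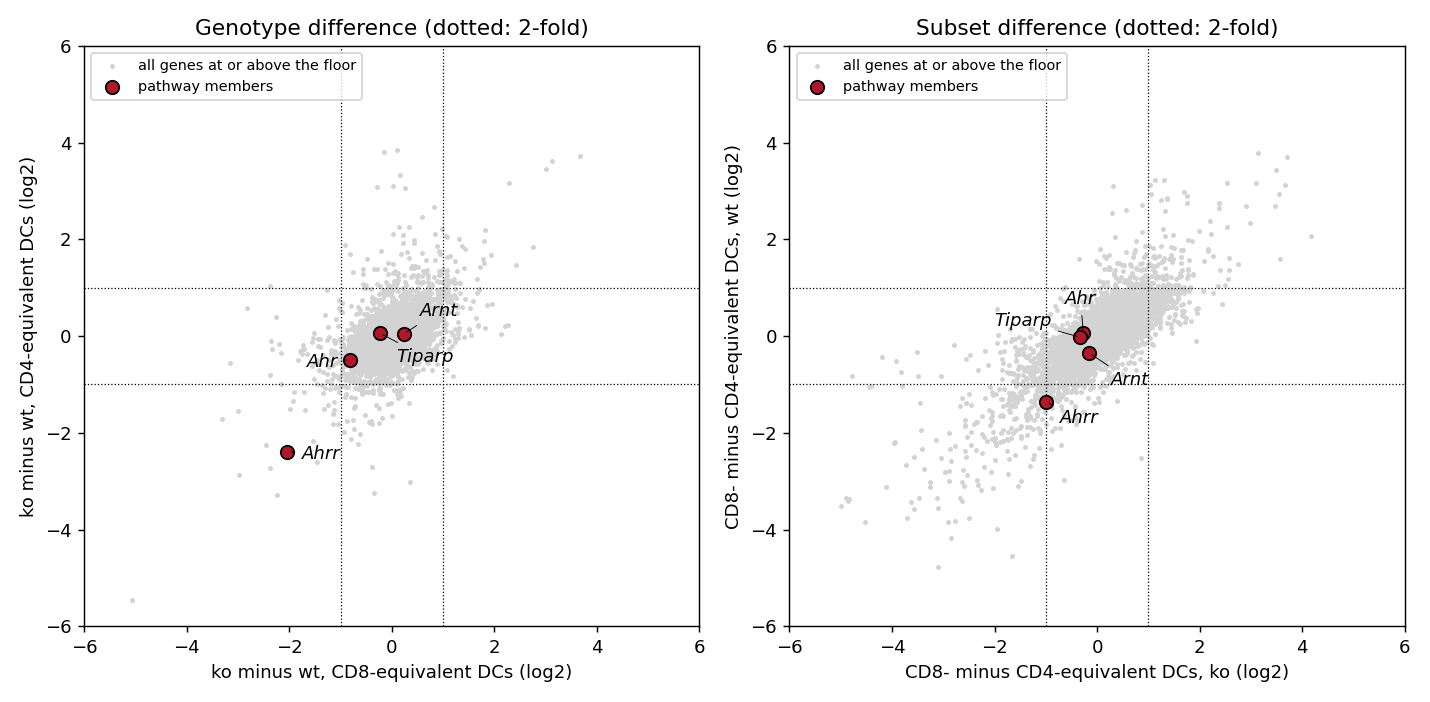
Log2 differences of the 10239 genes with at least 1 array at the floor or above (grey) and of the 4 members that did (red): at left ko minus wt in CD8-equivalent DCs (horizontal) against CD4-equivalent DCs (vertical), at right CD8- minus CD4-equivalent DCs in ko (horizontal) against wt (vertical), with 2-fold dotted. Ahrr lies at -2.04 and -2.39 in the left plot and at -0.998 and -1.35 in the right plot, and Ahr, Arnt and Tiparp lie inside 2-fold in both.

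The marker genes of other cells were set beside the Ahrr difference, as sums of the linear values over each list. In bulk samples, fewer cells of a type and less RNA per cell cannot be told apart. Of all genes compared, 1.00% were 2-fold or more lower and 1.14% higher in ko than in wt CD8-equivalent DCs. In CD4-equivalent DCs 0.952% were lower and 1.39% higher in ko. In CD8-equivalent DCs, where Ahrr was 4.10-fold lower in ko, 6 of the 8 compared markers of monocytes and macrophages lay 2-fold or more below wt and 0 above it, among them Adgre1 (-3.00), C1qb (-2.37) and Apoe (-2.16). Adgre1 and C1qb lay below the floor in ko (5.08 and 5.56), where sizes are compressed. The list summed to 4245 in ko and 9339 in wt. C1qa and Mertk lay below the floor on all arrays, while C1qb read 7.93 in wt CD8-equivalent DCs. Lyz2 had the highest value of the list on every array (11.31 in ko and 12.75 in wt CD8-equivalent DCs), so it weighs most in these sums. In CD4-equivalent DCs, where Ahrr was 5.25-fold lower in ko, that list summed to 16011 in ko and 17133 in wt, with 1 of 8 higher (C1qb, 1.03) and 1 lower (Adgre1, -1.55). There the neutrophil list summed to 4119 in ko and 840 in wt (9 of 11 at least 2-fold higher, 0 lower, led by Ngp at 3.86 with a wt value of 5.61, below the floor), with Camp below the floor on all arrays. Plasmacytoid DC markers summed to 9420 in ko and 4855 in wt (3 of 8 higher, 0 lower, led by Ccr9 at 2.47), and CD8-equivalent DC markers to 16012 in ko and 10414 in wt (3 of 8 higher, 0 lower, led by Clec9a at 3.07). CD4-equivalent DC markers summed to 18159 in ko and 18471 in wt CD4-equivalent DCs (1 of 10 higher, 2 lower). In CD8-equivalent DCs the neutrophil, plasmacytoid DC, CD8-equivalent DC and CD4-equivalent DC lists summed to 522, 13914, 22345 and 5235 in ko, against 376, 11610, 23700 and 4894 in wt. There Mpo was the 1 neutrophil marker that could be compared (7.55 in ko and 4.79 in wt), and Itgae was the 1 of 10 CD8-equivalent DC markers at least 2-fold lower (5.06 in ko and 7.42 in wt), while 0 of 8 plasmacytoid and 0 of 10 CD4-equivalent DC markers passed 2-fold. B cell markers summed to 925 in ko and 870 in wt CD8-equivalent DCs, and to 881 in ko and 1049 in wt CD4-equivalent DCs, with Cd79a, Pax5 and Ms4a1 below the floor on all arrays. Mast cell and basophil markers summed to 209 in ko and 176 in wt CD8-equivalent DCs, and to 204 in ko and 172 in wt CD4-equivalent DCs, with 5 of 6 below the floor and Cpa3 at 5.93 in ko and 4.90 in wt CD8-equivalent DCs. The part of these cells in the Ahrr difference was not tested.

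The profile of Ahrr over the 4 arrays was matched by 3 genes most closely, by Euclidean distance between log2 profiles centred on their own means, among 10239 genes. These were B4galt6, a lactosylceramide synthase (distance 0.64), Ptger3, a prostaglandin E2 receptor (0.67), and Slc16a14, a member of the monocarboxylate transporter family (0.68). B4galt6 read 5.69 in ko CD8-equivalent and 7.53 in ko CD4-equivalent DCs, against 8.14 in wt CD8-equivalent and 9.78 in wt CD4-equivalent DCs. Ptger3 read 5.68 and 7.26 in ko CD8- and CD4-equivalent DCs, against 8.05 and 9.99 in wt CD8- and CD4-equivalent DCs. Slc16a14 read 5.00 and 5.43 in ko CD8- and CD4-equivalent DCs, against 7.24 and 8.72 in wt CD8- and CD4-equivalent DCs. All 3 were highest in wt CD4-equivalent DCs, as Ahrr was. B4galt6 and Ptger3 were also lowest in ko CD8-equivalent DCs, with larger subset differences than Ahrr in both genotypes. The 3 genes were picked for closeness to Ahrr, so a similar order was built in. Both ko values of Slc16a14 lay below the floor, so the step between them is not read.

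**Figure D3:**
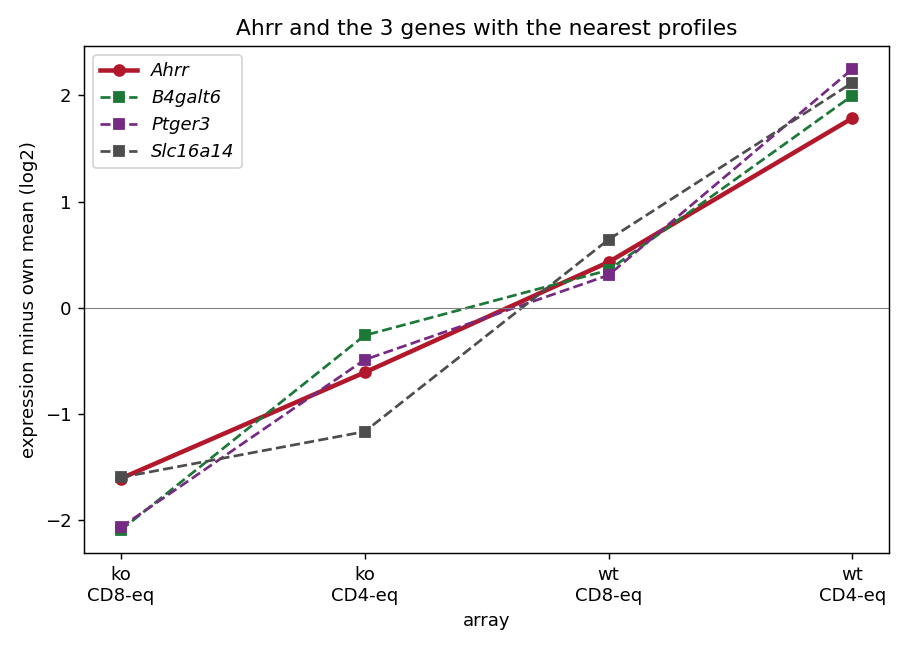
Log2 expression minus each gene's own mean over the 4 arrays (vertical axis) by array (horizontal axis) for Ahrr (solid) and the 3 genes with the nearest profiles, B4galt6, Ptger3 and Slc16a14 (dashed). All 4 genes are highest in wt CD4-equivalent DCs, and Ahrr, B4galt6 and Ptger3 are lowest in ko CD8-equivalent DCs. Both ko values of Slc16a14 lie below the floor.

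The wider pathway was covered by 62 further genes in 6 lists, of which 54 had a probe set with 1 symbol and 36 reached the floor on at least 1 array. These were tested with limma across all 10239 genes in a model that adds a genotype and a subset term, two-sided with Benjamini-Hochberg adjustment. The lists too were drawn up with earlier results of these arrays known, so their calls and p-values describe these arrays and are not independent support. The model has 1 residual degree of freedom, which is the interaction of genotype and subset. Each subset serves as a replicate for the genotype term and each genotype for the subset term. The p-values reflect only that interaction and a spread pooled over all genes, and either may be technical. A gene that differs between genotypes in 1 subset alone therefore has a larger error and is called less readily. For genotype, limma called 0 of the 36 genes at an adjusted p of 0.05, where it called 0.166% of all genes. At an unadjusted p under 0.05 there were 5 (Cyp2s1, Nqo2, Hmox1, Hif1a and Kynu), where 15.6% of all genes passed for genotype and 33.3% for subset. For subset it called 3 of the 36, 2 higher and 1 lower in CD8-equivalent DCs, where it called 14.3% of all genes.

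Among other genes that the receptor can induce, Cyp2s1 read higher in ko and most lay below the floor. Of 11 listed, 7 were measured and 5 of these (Cyp1a2, Aldh3a1, Serpinb2, Il10 and Ereg) lay below the floor on all arrays. Cyp2s1, a cytochrome P450 of extrahepatic tissues, read 7.72 in ko CD8-equivalent and 7.90 in ko CD4-equivalent DCs, against 6.59 in wt CD8-equivalent and 6.25 in wt CD4-equivalent DCs. Both ko arrays lay above both wt arrays, the opposite order to Ahrr. Ko minus wt was 1.13 in CD8-equivalent DCs (2.18-fold higher) and 1.65 in CD4-equivalent DCs (3.14-fold higher), with a limma estimate of 1.39 ± 0.17 (SE, adjusted p = 0.061), which misses the threshold. The adjusted p ran from 0.014 to 0.13 over 4 other settings. The Cyp2s1 promoter window held 0 matches to GCGTG, where 32.4% of all windows held at least 1. Sequence beyond 250 bases before and 50 after the start was not searched. Slc7a5, the large neutral amino acid transporter that imports tryptophan and kynurenine, was higher in CD8-equivalent DCs, by 0.61 in ko and 0.64 in wt (limma adjusted p = 0.031), and its ko minus wt differences were -0.29 in CD8-equivalent and -0.26 in CD4-equivalent DCs.

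Of the NRF2 pathway, which regulates Nqo1 alongside the receptor, all 10 listed genes were compared, and limma called 0 for either effect (2 and 4 at an unadjusted p under 0.05 for genotype and subset, against 15.6% and 33.3% of all genes). Hmox1, the haem-degrading enzyme haem oxygenase 1, read 6.83 in ko CD8-equivalent and 7.48 in ko CD4-equivalent DCs, against 7.94 in wt CD8-equivalent and 7.80 in wt CD4-equivalent DCs. Ko minus wt was -1.11 in CD8-equivalent DCs, the only difference of this list that reached 2-fold, and -0.32 in CD4-equivalent DCs (limma adjusted p = 0.23). In the same CD8-equivalent arrays the macrophage list, in which Lyz2 weighs most, stood at 4245 in ko and 9339 in wt. The part of that list's cells in the Hmox1 difference was not tested. Nfe2l2, which encodes NRF2 itself, differed by -0.01 in CD8-equivalent and 0.02 in CD4-equivalent DCs. The list's median ko minus wt difference was -0.19 in both subsets, against 0.004 in CD8-equivalent and -0.08 in CD4-equivalent DCs over all genes, and after cyclic loess it was -0.10 in CD4-equivalent DCs.

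Of 12 tryptophan and kynurenine enzymes, 11 were measured and 7 compared, while Ido2 and Tdo2, the alternative first enzymes of the pathway, lay below the floor on all arrays together with Qprt and Aadat. For genotype limma called 0 of the 7, where it called 0.166% of all genes. For subset it called 1 of the 7 (14.3%), where it called 14.3% of all genes. That 1 was Kyat3, a kynurenine aminotransferase, which read 8.03 in ko CD8-equivalent and 6.91 in ko CD4-equivalent DCs, and 8.03 in wt CD8-equivalent and 6.59 in wt CD4-equivalent DCs. Kyat3 was higher in CD8-equivalent DCs by 1.12 in ko and 1.44 in wt (limma adjusted p = 0.011). Kmo, the kynurenine monooxygenase, was nearly level, reading 12.15 in ko CD8-equivalent and 12.25 in ko CD4-equivalent DCs, against 12.29 in wt CD8-equivalent and 12.40 in wt CD4-equivalent DCs. Kynu, the kynureninase, differed ko minus wt by -0.51 in CD8-equivalent and -0.21 in CD4-equivalent DCs (limma adjusted p = 0.31).

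Of the receptor's partners and coregulators, all 10 were compared, 0 were called by limma for genotype (0 at an unadjusted p under 0.05) and 1 for subset. Of all genes, limma called 0.166% for genotype and 14.3% for subset. Relb, the NF-kB subunit that can pair with the receptor, read 5.95 in ko CD8-equivalent and 7.12 in ko CD4-equivalent DCs, and 6.10 in wt CD8-equivalent and 7.25 in wt CD4-equivalent DCs. Relb was lower in CD8-equivalent DCs by -1.17 in ko and -1.15 in wt (limma adjusted p = 0.0098), and ko minus wt was -0.15 and -0.13 in CD8- and CD4-equivalent DCs. Of the cytosolic complex, 2 of 4 genes were measured. The chaperone gene Hsp90aa1 differed by 0.12 and 0.05, ko minus wt, in CD8- and CD4-equivalent DCs, and the co-chaperone gene Ptges3 by 0.03 and -0.07. Of 15 other genes of PAS-domain proteins (the list named other bHLH-PAS factors), 14 were measured and 5 reached the floor (Arntl, Clock, Hif1a, Per1 and Per3). Limma called 0 of the 5 for genotype (1 at an unadjusted p under 0.05, against 15.6% of all genes) and 0 for subset (2, against 33.3%). Hif1a, the hypoxia factor that also pairs with ARNT, differed ko minus wt by 0.41 in CD8-equivalent and 0.27 in CD4-equivalent DCs (limma adjusted p = 0.29).

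**Figure D4:**
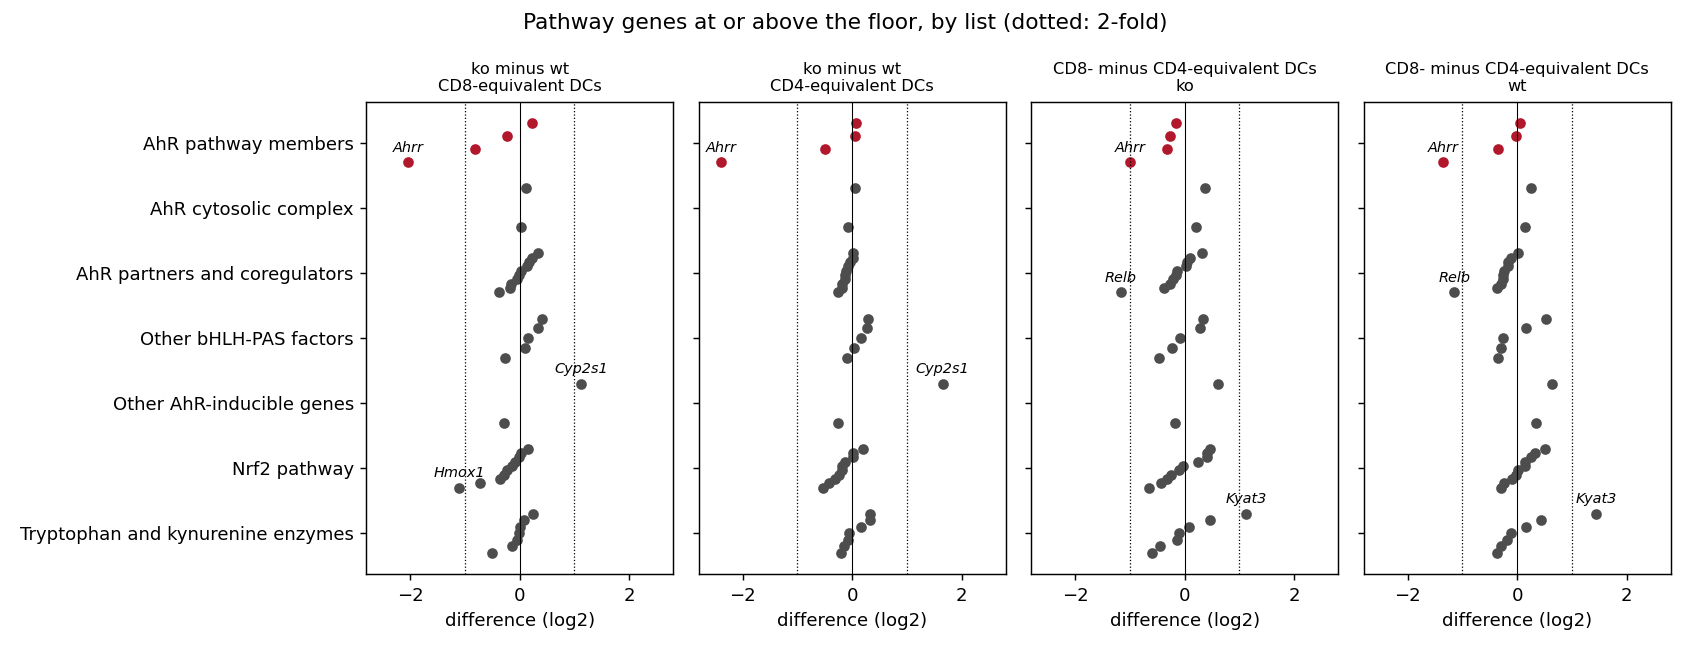
Log2 differences (horizontal axis) of the pathway genes with at least 1 array at the floor or above, by list (rows), for the 4 comparisons (panels), with the 8-gene list in red, 2-fold dotted and genes at about 2-fold or more named. Ahrr stands apart to the left in both genotype panels and Cyp2s1 to the right, with Hmox1 (-1.11) also to the left in CD8-equivalent DCs. In the subset panels Ahrr (-0.998 in ko and -1.35 in wt) and Relb lie to the left and Kyat3 to the right.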

How the data were processed

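Expression was measured on 4 Affymetrix arrays, 1 per genotype and sorted subset. The deposited values are log2 summaries per probe set. Per the submitters' processing notes the authors used RMA and Partek, with no version or later step named. The log2 base was inferred from the values (3.52 to 14.3). No scanner values were used here. Probe sets were named from the 2016 platform annotation: of 35399, 21789 carried 1 symbol, 1621 several and 11989 were unnamed here. RefSeq (GRCm38.p6) gave chromosomes and promoters. Differences of 2 arrays have no test. Limma 3.58.1 (R 4.3.3, lmFit and eBayes, 3.98 prior degrees of freedom) was fitted across 10239 genes and read only for genes outside the 8 members. It was also run on values simulated from its own fitted spread, with no subset effect or interaction. Such a run cannot check the fit on these arrays. The members and lists were chosen with earlier results of these data known. Beside the members, genes were named where they passed 2-fold in a comparison or limma's threshold (at most 4 per list), as the 3 profiles nearest to a member spanning at least 1 on the log2 scale, or as marker genes past 2-fold (at most 3 per list). Nqo2, Hif1a, Kynu, Kmo, Nfe2l2, Hsp90aa1, Ptges3, Lyz2 and genes listed as below or at the floor fall outside this rule, chosen once their values had been seen. Alternatives were cyclic loess, the mean of a gene's probe sets, no floor, an upper-quartile floor (8.88), 1.5-fold, and a trended and robust prior.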

Additional observations from a re-analysis of the deposited data

Results flagged for a closer look

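Some genes differed in opposite directions in the 2 groups of a contrast, and with 1 array per group none of these differences between groups was tested. The CD8- minus CD4-equivalent difference of Ahr was -0.27 in ko and 0.06 in wt, a difference of -0.33. The ko minus wt difference of Tiparp was -0.24 in CD8-equivalent and 0.06 in CD4-equivalent DCs, a difference of -0.30. The CD8- minus CD4-equivalent difference of Cyp2s1 was -0.18 in ko and 0.34 in wt, a difference of -0.53. That of Hmox1 was -0.65 in ko and 0.14 in wt, a difference of -0.79. Kyat3 differed between genotypes by -0.003 in CD8-equivalent and 0.32 in CD4-equivalent DCs, a difference of -0.32. Genotype differences near 0 with opposite signs in CD8- and CD4-equivalent DCs were also seen for Nfe2l2 (-0.0075 and 0.017, a difference of -0.025) and Ptges3 (0.027 and -0.075, a difference of 0.10).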

How the results depend on the processing

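Over the 4 differences of each of the 8 members, taking the mean of a gene's probe sets could move none, since all 8 had 1 probe set. Cyclic loess moved the members' differences by at most 0.15. Signs changed for Ido1 and Nqo1 between the subsets of ko, both below the floor. Over 15 other genes (12 of the pathway and the 3 nearest profiles), the shifts were at most 0.02 and 0.16, and Nfe2l2 changed sign in CD8-equivalent DCs (-0.0075 as deposited and 0.013 after cyclic loess). The median CD8- minus CD4-equivalent difference over all genes in ko was 0.11 as deposited and 0.011 after cyclic loess. Under cyclic loess the CD8- minus CD4-equivalent difference of Ahrr in ko was -1.15, so that 1 member passed 2-fold there (1 also at 1.5-fold), and Kyat3 at 0.97 no longer did, which left 1 other pathway gene. Of all genes compared, 717 of 10126 passed 2-fold there. At 1.5-fold, 2 members were lower in ko CD8-equivalent DCs (Ahrr and Ahr), where 347 of 9972 genes compared were lower. Between the subsets in ko, 5 of 36 other pathway genes differed at 1.5-fold, where 2046 of 10118 genes did. Above the upper-quartile floor Ahrr was not compared in CD8-equivalent DCs (0 members called), and 0 other pathway genes were called in any of the 4 comparisons. Of all genes compared there, ko minus wt, 88 of 5171 passed 2-fold in CD8-equivalent and 102 of 5018 in CD4-equivalent DCs. Between the subsets 353 of 5208 passed in ko and 241 of 5202 in wt. Genes at 2-fold or more, ko minus wt, numbered 214 in CD8-equivalent and 234 in CD4-equivalent DCs, but 88 and 102 above the upper-quartile floor and 807 and 768 at 1.5-fold. Between the subsets they numbered 738 in ko and 524 in wt, but 353 and 241 above that floor and 2046 and 1521 at 1.5-fold. After cyclic loess 69.3% of the genes at 2-fold were higher in ko CD4-equivalent DCs, against 59.4% as deposited, and 34.6% against 46.5% were higher in CD8-equivalent DCs of ko. Limma called 17 genes for genotype, but 3 without a floor, 141 above the upper-quartile floor and 307 with the trended and robust prior, which also called 1 other pathway gene, Cyp2s1. For subset it called 1467, but 946 without a floor, and the trended and robust prior called 8 of 36 other pathway genes in place of 3, where it called 20.8% of all genes. Above the upper-quartile floor limma called 3 of 21 other pathway genes for subset, where it called 23.4% of all genes. They were Slc7a5, Wars and Gclm, the last of the NRF2 pathway. Relb and Kyat3 lay below that floor on all arrays and were not tested there. Without replicates no array could be left out of a test. No paired analysis was possible because each group holds 1 array and the labels carry no replicate numbers.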
